A study of Mus musculus with 12 samples.

Results

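The genes encoding the high mobility group proteins HMGB1, HMGB2 and HMGN1, together with Ager, which encodes the HMGB1 receptor RAGE, were compared between mouse Kupffer cells and blood monocytes. These 4 genes were chosen by symbol from the 248 genes tested, and all 4 had a row in the table. The samples were 6 pools of blood monocytes (MNC) and 6 pools of Kupffer cells (KC), the resident macrophages of the liver, from Balb/C mice, for which no treatment was named. Cells of both kinds were taken by magnetic sorting with antibodies to F4/80, a surface antigen of macrophages, from blood or from collagenase-digested liver. The labels give pools of 5 animals (the methods of the study allow pools of 4 as well), and the same strain, sorting antigen and RNA kit were used for both groups. RNA was measured without amplification on an nCounter panel of inflammation genes, on which colour-coded probes hybridised to each transcript are counted one by one in a lane per sample. The numbers of the samples only name them and do not tie a monocyte pool to a Kupffer cell pool. P-values here measure the spread between pools.

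HMGB1 and HMGB2 are close relatives with paired HMG boxes that bend DNA, and HMGN1 is an unrelated small protein that binds nucleosomes and loosens chromatin. HMGB1 is abundant in most nucleated cells, whereas HMGB2 is known for high levels in proliferating and lymphoid cells and in the testis. When HMGB1 leaves damaged or stimulated cells it acts as an alarmin and signals through RAGE, TLR2 and TLR4, and in macrophages it calls forth cytokines and chemokines. HMGN1 has also been described as an alarmin that acts through TLR4. The amount of transcript measured here does not show where the protein was or whether it was released.

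The sequences just upstream of the 3 HMG genes are shown because the genes did not move alike in these samples and all 3 upstream runs hold CCAAT boxes, in different numbers. Each run holds the 250 bases before the annotated start, written 5′ to 3′ on the strand of the gene, from RefSeq on GRCm38.p6. Capitals mark the CCAAT box, the letters CCAAT or, on the other strand, ATTGG. The Hmgb1 run is at chr5:149053058-149053307 on the minus strand and belongs to the outermost of 2 starts in the table. The Hmgb2 run is at chr8:57511593-57511842 on the plus strand, and the Hmgn1 run is at chr16:96127726-96127975 on the minus strand.
Hmgb1: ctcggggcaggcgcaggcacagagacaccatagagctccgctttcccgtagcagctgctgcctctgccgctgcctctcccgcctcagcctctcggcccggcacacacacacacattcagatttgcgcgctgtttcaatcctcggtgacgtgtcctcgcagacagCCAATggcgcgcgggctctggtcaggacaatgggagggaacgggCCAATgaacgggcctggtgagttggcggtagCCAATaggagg
Hmgb2: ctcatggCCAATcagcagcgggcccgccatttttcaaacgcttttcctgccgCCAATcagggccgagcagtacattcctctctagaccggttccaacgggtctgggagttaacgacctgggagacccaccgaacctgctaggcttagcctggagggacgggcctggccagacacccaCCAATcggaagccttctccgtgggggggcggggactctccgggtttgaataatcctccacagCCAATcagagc
Hmgn1: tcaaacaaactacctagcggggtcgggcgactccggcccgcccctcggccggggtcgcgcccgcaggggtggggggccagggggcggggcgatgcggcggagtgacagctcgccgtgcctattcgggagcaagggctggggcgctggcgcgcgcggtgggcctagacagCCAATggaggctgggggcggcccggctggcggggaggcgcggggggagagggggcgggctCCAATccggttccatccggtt

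The Hmgb2 run held 4 CCAAT boxes, whose first bases lay 243, 198, 73 and 11 bases before the start. The Hmgb1 run held 3, at 86, 42 and 11 bases, and the Hmgn1 run held 2, at 81 and 21 bases. The box nearest to the start thus lay at the same distance, 11 bases, in both HMGB genes. Among 32851 mouse windows of the same length, 33.8% held at least 1 CCAAT box, 10.1% at least 2, 2.79% at least 3 and 0.84% at least 4. The GC box GGGCGG (or CCGCCC) occurred 4 times before Hmgn1 (4.09% of windows held at least 4), once before Hmgb2 and nowhere in the Hmgb1 run. TATAAA, searched on both strands and present in 12.4% of windows, was in none of these runs or in that of Ager (chr17:34597600-34597849, plus strand), which held 1 CCAAT box 195 bases before its start. The runs of Hmgb1, Hmgb2, Hmgn1 and Ager were 63.6%, 60.4%, 76.0% and 57.6% G and C, against a median of 52.4% over all windows. These matches describe letters and do not show that a factor binds there.

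Counted molecules per lane, over genes above background, numbered 158730 to 339100 for monocytes and 80944 to 140029 for Kupffer cells. The deposited values are these counts times a lane factor, 0.554 to 1.13 for monocytes and 1.30 to 2.17 for Kupffer cells. A gene not above the highest negative control of its lane is listed at that control, 5 to 27 for monocytes and 7 to 14 for Kupffer cells. A gene was called higher or lower in Kupffer cells where limma, a linear model with moderated variances, gave an adjusted p under 0.05 on log2(value + 1). As a check of the labels, the 6 measured genes of a macrophage and monocyte list summed to 12744 to 18355 normalized counts (monocytes) and 5567 to 9024 (Kupffer cells), Cd163 and Mrc1 were called higher in Kupffer cells, Itgb2, Tyrobp and Trem2 (at background in 10 of 12 samples) lower and Ccr2 not, and Adgre1 (which encodes F4/80), Csf1r and Clec4f were not analysed here. Hepatocyte genes (10 of 10 measured, all called higher) summed to 395 to 731 and 15116 to 45200, and 10 genes of T and NK cells (7 called higher) to 4817 to 9162 and 11541 to 37679, or, without Ccl5, to 2506 to 4306 and 4128 to 6486. Of all genes tested, 35.1% were called higher and 21.4% lower. The single endothelial gene measured, Flt1, lay at 9.01 to 27 and 52.2 to 151, and 3 neutrophil genes summed to 207 to 456 and 154 to 310. The part of these other cell types in the results on the HMG genes was not tested. In such bulk samples fewer cells of a type and less RNA per cell cannot be told apart.

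Hmgb2 was the member that passed the test between the cell types under the deposited scaling. Its normalized counts in monocytes were 118, 163, 184, 113, 182 and 84.7 in samples 1 to 6, and in Kupffer cells 58.7, 65.8, 68.2, 48.9, 73.9 and 57.1. Every Kupffer cell sample lay below every monocyte sample, as for 15.7% of the genes tested. The mean was 141 ± 41.3 (SD, n = 6) in monocytes and 62.1 ± 8.97 (SD, n = 6) in Kupffer cells. On the log2(value + 1) scale Hmgb2 was 1.13 lower in Kupffer cells (log2 fold change -1.13 ± 0.20 SE, 95% interval -1.56 to -0.70), that is 2.18-fold lower, with an adjusted p of 0.000281 in limma over 248 genes. By the exact two-sided permutation test over all assignments of the 12 samples p was 0.00216, the smallest these groups allow. Hmgb2 was thus the 1 member of 4 called lower, against 21.4% of all genes, and no member was called higher, against 35.1%. Of the 160 genes above background in every sample, 19 had a lower log2 fold change than Hmgb2. Of the 53 genes called lower, 40 were above background in all samples. Without monocyte sample 2 the number called lower went from 53 to 86, with Hmgb2 still called. The listed background of that lane was 5, against 16 to 27 in the other monocyte lanes. The part of genes at background in this rise was not tested.

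The Hmgb2 values rested on 145 to 307 counted molecules in a monocyte lane but on 23 to 45 in a Kupffer cell lane, and the 95% Poisson interval of the count lay above the background of the lane in all 12 samples. Since no background was subtracted from the deposited values, the low Kupffer cell values hold more of it in proportion. In Hmgb2 the monocyte samples differed more among themselves than the Kupffer cell samples did. The SD of log2 Hmgb2 was 0.45 in monocytes, above that of 92.5% of the 160 genes, and 0.21 in Kupffer cells, above that of 17.5%.

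Hmgb1, which encodes the RAGE ligand HMGB1, did not pass the test. Its normalized counts in monocytes were 759, 849, 924.5, 680, 884 and 601 in samples 1 to 6, and in Kupffer cells 737, 1052, 1052, 837, 1074 and 860. The groups overlapped, with the monocyte sample the higher one in 9 of 36 pairs of samples. Means were 783 ± 126 and 936 ± 142 (SD, n = 6 each), a log2 fold change of 0.26 ± 0.15 SE with a limma adjusted p of 0.142. The 95% interval ran from 0.956-fold to 1.497-fold, so a rise of up to that size in Kupffer cells lay within the error. Counts of 754 to 1493 in the monocyte lanes, against 394 to 576 in those of Kupffer cells, kept Hmgb1 far above background.

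Hmgn1, the nucleosome-binding member, was closer still to equality. It gave 720, 803, 898, 620, 861 and 536 normalized counts in monocytes, and 648, 976, 871, 606, 917 and 689 in Kupffer cells. The groups overlapped over most of their range, with means of 739 ± 141 and 785 ± 156 (SD, n = 6 each). The log2 fold change was 0.08 ± 0.17 SE, with a 95% interval of -0.29 to 0.46 and a limma adjusted p of 0.654. Without monocyte sample 6, which was the lowest, it was -0.00323.

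Ager, the receptor, was measured close to background. Its values in monocytes were 23.6, 37.2, 38.4, 18.8, 31.4 and 27, the last of which is the background of that lane, and in Kupffer cells 31.3, 27.4, 35.1, 38.2, 45.7 and 29.6. The groups overlapped. They stood on 31 to 57 counted molecules in each of the 5 monocyte samples above background, 11 to 36 of them over it, and on 14 to 24 per Kupffer cell sample, 1 to 15 over it, and the Poisson interval cleared the background in 5 of 6 monocyte and 3 of 6 Kupffer cell samples. The log2 fold change of 0.25 ± 0.19 SE (95% interval -0.16 to 0.66, limma adjusted p = 0.257) did not pass. The listed 27 was not multiplied by its lane factor, which would put it at 14.9. With background values multiplied by the factor the log2 fold change of Ager was 0.38 (limma adjusted p = 0.139). No background was subtracted from these values. Multiplied by the lane factor, the background was 5.63 to 15.7 in monocyte lanes and 11.7 to 30.4 in Kupffer cell lanes. The Kupffer cell values of Ager thus hold more of it, and the sign of the fold change with background subtracted was not tested.

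**Figure D1:**
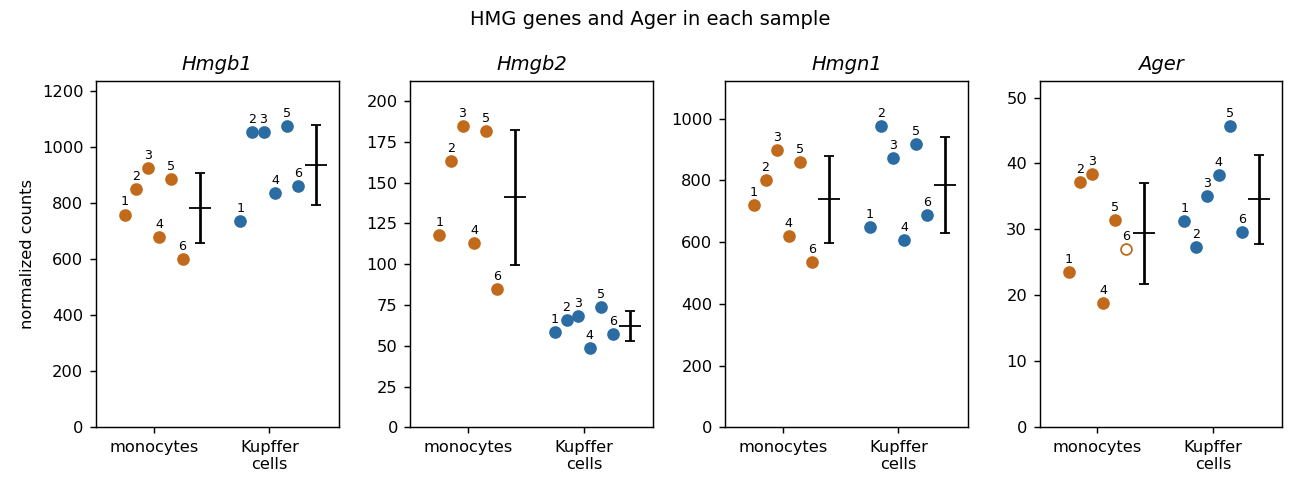
Normalized counts (vertical axis, from 0) of Hmgb1, Hmgb2, Hmgn1 and Ager in the 6 monocyte samples (orange) and 6 Kupffer cell samples (blue), numbered by sample, with mean and SD as black bars; the open circle is the value listed at background. Hmgb2 alone shows separate groups, with all Kupffer cell samples at or below 73.9 and all monocyte samples at or above 84.7.

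These folds depend on how lanes were scaled to each other. The deposited factor takes in the housekeeping genes, and each of the 4 in the table differed between the cell types without overlap, Gusb being lower in Kupffer cells (log2 fold change -1.53) and Cltc, Gapdh and Pgk1 higher (0.31, 0.75 and 0.91). The median gene of the 160 above background had a log2 fold change of 0.13. Relative to it Hmgb1 stood at 0.13, Hmgb2 at -1.26, Hmgn1 at -0.05 and Ager at 0.12. Hmgb2 was called lower under the deposited scaling, after rescaling to the median gene, after quantile normalization and with lanes scaled to Cltc, Gapdh or Pgk1 alone, whereas with lanes scaled to Gusb alone its log2 fold change turned to 0.39 (limma adjusted p = 0.190). The signs of Hmgb1, Hmgn1 and Ager turned under several of these scalings. With Pgk1 alone the log2 fold changes of Hmgb1, Hmgn1 and Ager were -0.65, -0.82 and -0.63, and with Gusb alone they were 1.79, 1.61 and 1.72, all past the threshold.

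**Figure D2:**
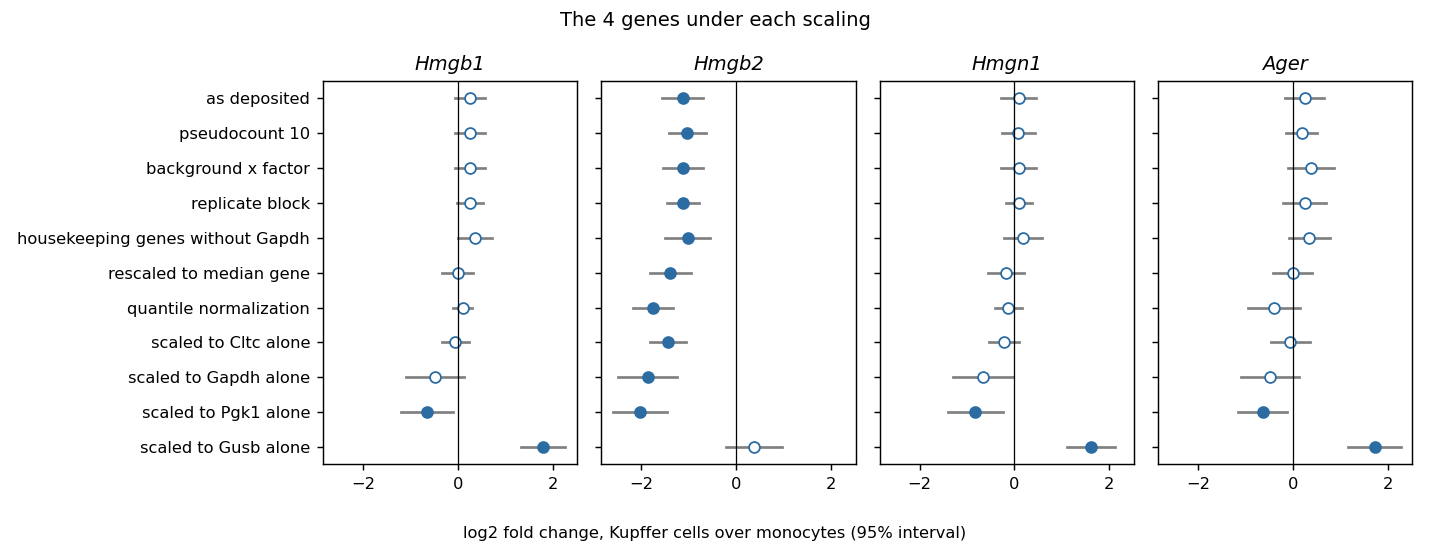
Log2 fold change (horizontal axis, Kupffer cells over monocytes, with 95% interval) of each of the 4 genes under 11 ways of treating the lanes; filled points have a limma adjusted p under 0.05. Hmgb2 lies to the left of 0 in all rows but the last, at 0.39 with Gusb alone, while the other 3 genes fall on both sides of 0.

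The plain ratio of 2 genes in the same lane does not contain the lane factor, and so the HMG genes were set against each other within each sample. The pseudocount of 1 added to each value leaves a small trace of the factor, and without it the log2 differences between the cell types were 1.40, 0.17 and -1.22 for the 3 ratios that follow. The probes of different genes differ in efficiency, so that a ratio is compared between cell types and is not read as a ratio of transcripts. The ratio of Hmgb1 to Hmgb2, the paired HMG box relatives, was 6.39, 5.17, 4.99, 5.97, 4.84 and 7.03 in monocyte samples 1 to 6, and 12.4, 15.8, 15.2, 16.8, 14.3 and 14.8 in Kupffer cells. All Kupffer cell samples lay above all monocyte samples. The geometric means were 5.68 and 14.8, a 2.61-fold difference (1.38 ± 0.11 SE on the log2 scale), with an exact permutation p of 0.00216 and 0.00325 after adjustment over the 3 ratios compared. Subtracting the highest negative control of each lane from the counts widened the difference to 3.63-fold, and subtracting their mean widened it to 2.96-fold, both with an exact adjusted p of 0.00325.

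The ratio of Hmgb1 to Hmgn1 was narrow in range and higher in Kupffer cells. It was 1.05, 1.06, 1.03, 1.10, 1.03 and 1.12 in monocytes and 1.14, 1.08, 1.21, 1.38, 1.17 and 1.25 in Kupffer cells, so that the Kupffer cell sample was higher in 34 of 36 pairs. The difference was 0.17 ± 0.05 SE on the log2 scale, or 1.13-fold, with an exact permutation p of 0.00866 before and after adjustment. Leaving out 1 sample at a time gave 0.13 to 0.20 with exact adjusted p of 0.00216 to 0.0195. In monocytes the log2 ratio varied with an SD of 0.05, against 0.24 for Hmgb1 and 0.29 for Hmgn1 taken alone, and in Kupffer cells with an SD of 0.12 against 0.23 and 0.29.

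The ratio of Hmgb2 to Hmgn1 ran from 0.159 to 0.212 in monocytes (median 0.194), and from 0.0684 to 0.0919 in Kupffer cells (median 0.0819). The groups did not overlap. On the log2 scale the difference was -1.21 ± 0.09 SE, with an exact permutation p of 0.00216 (adjusted 0.00325). The 3 ratios share genes and are not independent of each other.

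**Figure D3:**
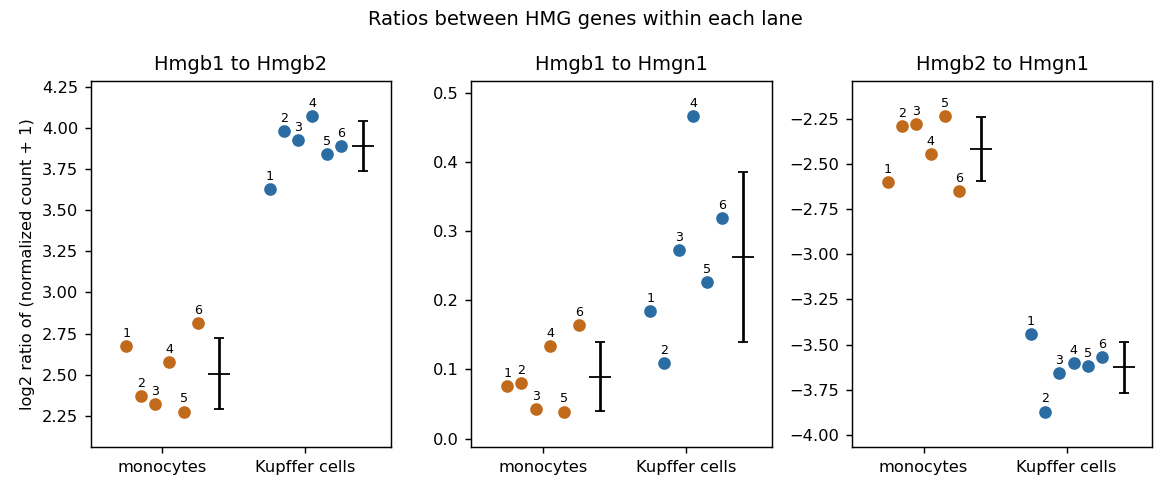
Log2 ratio of normalized counts (vertical axis, pseudocount of 1; each panel has its own range) between pairs of HMG genes in monocytes (orange) and Kupffer cells (blue), numbered by sample, with mean and SD as black bars. Both ratios with Hmgb2 separate the cell types fully, and the ratio of Hmgb1 to Hmgn1 does so in 34 of 36 pairs.

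Within the monocytes the 3 HMG genes ranked the samples in the same order. Samples 6 and 4 were the lowest and samples 3 and 5 the highest for Hmgb1, Hmgb2 and Hmgn1 alike. Relative to the monocyte mean, sample 6 lay at -0.36 for Hmgb1, -0.44 for Hmgn1 and -0.67 for Hmgb2 on the log2 scale, and sample 3 at 0.26, 0.30 and 0.44. The summed level of the T and NK cell list followed this order as well, at 4817, 5947, 7497, 8925, 8955 and 9162 normalized counts in samples 6, 4, 1, 2, 5 and 3. Without Ccl5 the T and NK cell sum was again lowest in samples 6 and 4 (2506 and 2933) and highest in sample 3 (4306). The sum of the macrophage and monocyte list ran in the reverse order, from 18355 in sample 6 through 15661, 14838, 13400 and 13363 to 12744 in sample 3. Tyrobp and Itgb2, with monocyte means of 7038 and 5684 normalized counts, weigh most in this sum. Ccr2, Mrc1, Cd163 and Trem2 had monocyte means of 1553, 352, 77.8 and 22.8, so the order says little about them. Ccl5 and Ltb had the highest monocyte means of the T and NK cell list, 3906 and 2147 normalized counts. They weigh most in its sum, and Ltb weighs most without Ccl5. The T and NK cell list holds genes that other cells express too, among them Tcf4 and Ccl5, and the part of the cell makeup of the pools in the spread of the HMG genes was not tested.

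In Kupffer cells the order of the samples differed from gene to gene. Hmgb1 was lowest in sample 1 and highest in sample 5, Hmgn1 lowest in sample 4 and highest in sample 2, and Hmgb2 lowest in sample 4 and highest in sample 5. Each of the 3 HMG genes was nonetheless above its Kupffer cell mean in samples 2, 3 and 5 and below it in samples 1, 4 and 6. The summed normalized counts of the lanes split alike, at 232593, 207080 and 212077 in samples 2, 3 and 5. In samples 1, 4 and 6 these lane sums were 182959, 178500 and 171375. Monocyte lane sums did not follow the HMG genes, at 177450, 178820, 175342, 187350, 185221 and 189849 in samples 1 to 6. They were highest in monocyte samples 6 and 4, where the HMG genes were lowest, and lowest in sample 3. The part of the lane sums in the shared split of the HMG genes in Kupffer cells was not tested. Kupffer cell sample 1 had the highest T and NK cell sum (37679), of which Ccl5 made up 33369. The other 9 genes of that list summed to 5777, 6486 and 6112 in samples 2, 3 and 5, above the 4309, 4564 and 4128 of samples 1, 4 and 6. The macrophage and monocyte list was lowest in samples 1 and 6 (5567 and 5668) and highest in sample 2 (9024). The hepatocyte sum was lowest in Kupffer cell sample 1 and highest in sample 2.

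**Figure D4:**
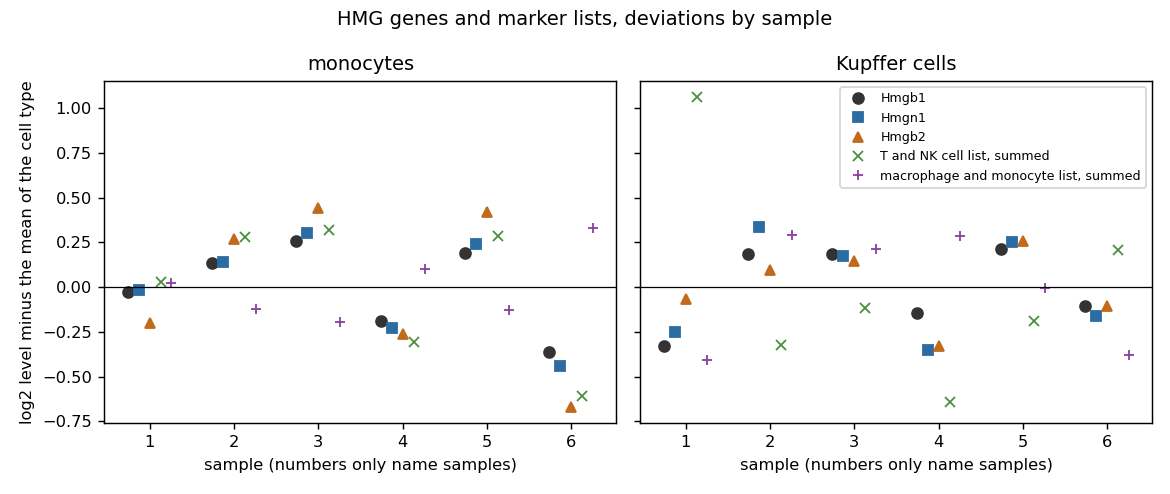
Log2 level minus the mean of the cell type (vertical axis) of Hmgb1, Hmgn1, Hmgb2 and the summed T and NK cell and macrophage and monocyte lists in each of the 6 monocyte and 6 Kupffer cell samples. In monocytes the 3 genes and the T and NK cell list rank the samples alike, from sample 6 (-0.67 for Hmgb2) to sample 3 (0.44), and the macrophage and monocyte list ranks them in reverse; in Kupffer cells the high T and NK cell point of sample 1 is mostly Ccl5 (33369 of 37679).

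Likeness over all 12 samples was taken as the root mean square difference of log2 values after each gene was centred on its mean, among the 159 other genes above background in every sample. The genes nearest to Hmgb1 were Cd4, which encodes a T helper cell receptor (0.111), Rela, the p65 subunit of NF-kB (0.115), and Tollip, an adaptor that restrains Toll-like receptor signals (0.118). Those nearest to Hmgn1 were Nfatc3, a calcium-dependent transcription factor (0.106), Hmgb1 (0.122) and Gnas, a stimulatory G protein subunit (0.131). Hmgb2 had no gene as near, its first being Il12a, a subunit of interleukin 12 (0.277), Smad7, an inhibitor of TGF-beta signalling (0.322), and Tlr9, the receptor for unmethylated DNA (0.332). The values were not scaled to the spread of each gene, so the distance grows with the difference between the cell types. It therefore largely restates the fold changes, and genes with small fold changes lie near each other. From Hmgb1, Hmgn1 ranked 6 and Hmgb2 ranked 120, at 0.713 against a median of 0.411. From Hmgb2, Hmgn1 ranked 45 (0.623) and Hmgb1 ranked 64 (0.713), both below the median of 0.782 for Hmgb2. After quantile normalization 0 of the 3 genes nearest to Hmgb1 and 1 of 3 for each of Hmgb2 and Hmgn1 were kept.

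Of the receptors and co-receptors of HMGB1, 6 of 9 listed genes were measured, of which 4 were called lower in Kupffer cells, 0 higher and 2 not, with a median log2 fold change of -0.72 against 0.05 over all 248 genes. That is 66.7% called lower, against 21.4% of all genes tested and 25% of those above background in all samples. The list is short and was chosen with earlier results known, and its 4 called genes are Toll-like receptors or the TLR4 co-receptor. Outside the list, Tlr8, Tlr7 and Tlr6 were also called lower under the deposited scaling (log2 fold changes -1.90, -0.96 and -0.37). Tlr1, above background in all samples, was not called. Tlr3, at background in all 6 monocyte and all 6 Kupffer cell samples, could not be compared. Tlr5 was not called either, but was at background in 6 monocyte and 3 Kupffer cell samples. Tlr2, which binds bacterial lipoproteins, fell from 299 ± 84.4 to 82.7 ± 23.0 normalized counts (SD, n = 6; log2 fold change -1.84 ± 0.23 SE, limma adjusted p = 1.18e-05). Tlr4, the receptor for lipopolysaccharide, was 220 ± 30.6 and 112 ± 26.6 (log2 fold change -0.995, limma adjusted p = 0.000214), and Ly96, its co-receptor MD-2, was 208 ± 36.9 and 120 ± 42.2 (-0.85, 0.00572). Tlr9, which senses DNA, also in complexes with HMGB1, was 175 ± 41.8 and 114 ± 19.2 (log2 fold change -0.59, limma adjusted p = 0.0156). Cxcr4, the receptor of the HMGB1-CXCL12 complex, was 2772 ± 546 and 2589 ± 952 and did not pass (limma adjusted p = 0.561), nor did Ager. Cxcr4 was called lower with lanes scaled to Gapdh alone (log2 fold change -0.91, limma adjusted p = 0.0317) or Pgk1 alone (-1.07, 0.00716). With lanes scaled to Gusb alone Tlr4, Ly96, Tlr9 and Cxcr4 turned to higher in Kupffer cells and Tlr2 no longer passed (limma adjusted p = 0.0815).

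Of the relay from RAGE and Toll-like receptors to the nucleus, 25 of 33 genes were measured, with 10 called higher, 1 lower and 14 not, and a median log2 fold change of 0.22. The share called higher, 40%, equalled the 40% among genes above background in all samples and was near the 35.1% of all genes. The share called lower was 4% under the deposited scaling, against 25% of genes above background in all samples and 21.4% of all genes. Jun, a subunit of AP-1, rose from 1046 ± 353 to 5146 ± 1285 normalized counts (log2 fold change 2.31 ± 0.22 SE, limma adjusted p = 8.75e-07). Rhoa, a small GTPase of the cytoskeleton, was the 1 gene called lower (2797 ± 122 and 2005 ± 279, log2 fold change -0.49, limma adjusted p = 0.00326), and it turned to higher with Gusb alone. Myd88, the adaptor shared by most Toll-like receptors, was not called, at 310 ± 29.9 and 352 ± 37.8. Over the settings tried, 2 to 25 of the 25 genes were called higher and 0 to 18 lower.

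Among the cytokines, chemokines and enzymes induced by HMGB1, 12 of 15 were measured, and 4 were called higher, 4 lower and 4 not (2 to 6 higher and 2 to 8 lower over the settings tried). These shares, 33.3% each, compare with 35.1% higher and 21.4% lower among all genes. Ccl4, a chemokine for monocytes and T cells, rose 6.01-fold, from 55.1 ± 5.82 to 344 ± 87.3 (limma adjusted p = 2.61e-08). Cxcl2, a chemokine for neutrophils, fell 28.0-fold, from 3633 ± 1710 to 125 ± 45.3 (limma adjusted p = 3.66e-08). Of the other alarmins 3 of 8 were measured, with 1 called higher (33.3%, against 35.1% of all genes) and 0 lower. The gene called was Hspb1, a small heat shock protein (40.4 ± 6.53 and 65.8 ± 25.4, log2 fold change 0.63, limma adjusted p = 0.0234). Its sign turned with quantile normalization and with Gapdh or Pgk1 alone. The Hspb1 call was also lost after rescaling to the median gene (limma adjusted p = 0.159), with Cltc alone (0.213) and without monocyte sample 6 (0.0528).

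All 10 genes listed as chromatin and kinase partners of the HMG proteins were measured, with 3 called higher, 2 lower and 5 not (0 to 9 higher and 0 to 6 lower over the settings tried). Shares of 30% and 20% lay near the 35.1% and 21.4% of all genes. Rps6ka5, which encodes the kinase MSK1 that phosphorylates HMGN1 and histone tails, was higher in Kupffer cells at 120 ± 24.4 against 68.8 ± 16.3 (log2 fold change 0.80 ± 0.20 SE, limma adjusted p = 0.00421), while its substrate Hmgn1 was not called. The Rps6ka5 call was lost with quantile normalization (log2 fold change 0.33, limma adjusted p = 0.197) and with Gapdh alone (0.057, 0.874), and its sign turned with Pgk1 alone. Cebpb, a transcription factor of myeloid differentiation, fell from 2985 ± 534 to 1087 ± 323 (log2 fold change -1.48, limma adjusted p = 1.51e-05) but stood at 0.046 with Gusb alone.

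**Figure D5:**
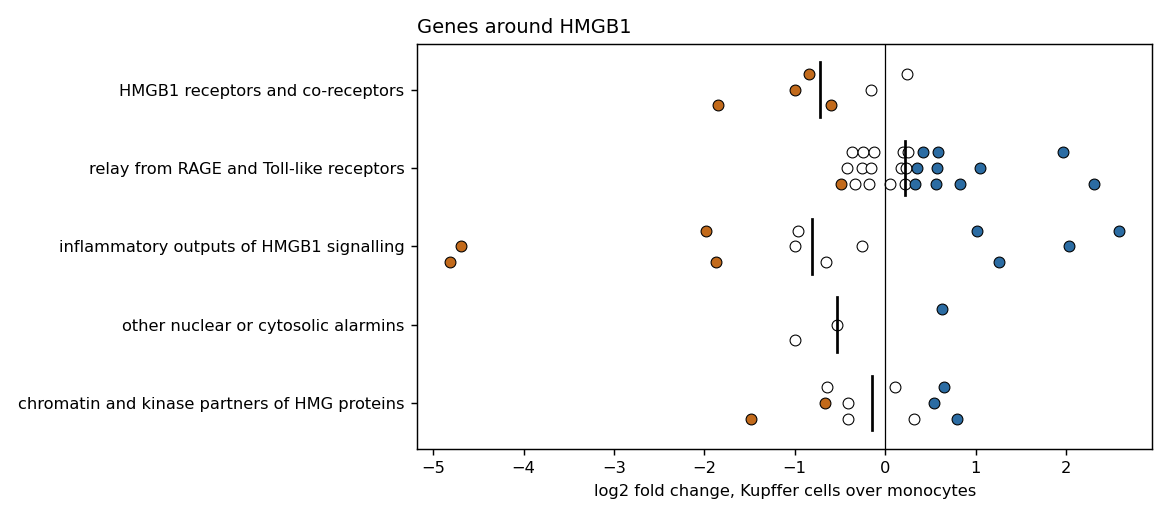
Log2 fold change (horizontal axis, Kupffer cells over monocytes) of each measured gene of 5 lists around HMGB1, with genes called higher in blue, called lower in orange and not called open; the black bar is the median of the list. Under the deposited scaling the receptor list lies mostly left of 0 (median -0.72; 5 of its 6 genes were called higher with Gusb alone), and the relay list has its 10 called rises to the right (2 to 25 over the settings tried).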

How the data were processed

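The panel was read in 6 monocyte and 6 Kupffer cell samples, 1 lane each, and the table holds 266 probe rows, with 8 negative and 6 positive controls and 4 housekeeping genes. The deposited values are signal: counts that the authors normalized in nSolver with positive controls and housekeeping genes, by geometric means, after background correction. The values above background proved to be whole multiples of 1 step per lane within a tolerance of 0.02, and this step was taken as the lane factor. Values at background, which equal the highest negative control, were not multiplied by it. A count model was therefore not used, and log2(value + 1) was tested with limma 3.58.1 in R 4.3.3 (lmFit, eBayes), with Benjamini-Hochberg adjustment over 248 genes and a threshold of 0.05. No filter was applied. The test which nSolver made is not described in the sources used here. Single values were compared by an exact two-sided permutation test in Python 3.11.15. Intervals on counts are 95% Poisson intervals and cover counting error only.

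The members and the gene lists were chosen with earlier results of these data known. Named were the 4 members, for each member above background in all samples the 3 genes nearest to it, the measured receptors above background in all samples, and of each list the called gene with the largest rise and fall. Myd88, the Toll-like receptors outside the receptor list and the cell type markers were named outside this rule. Myd88, Ccl5, Ltb, Tyrobp, Itgb2 and those Toll-like receptors were singled out after their values were seen. The limma step was tested on simulated data. Promoter runs came from RefSeq on GRCm38.p6 and were matched by symbol for all 4 members. Alternatives tried were the pseudocount, a filter, the scaling, the background, the replicate block, leaving out single samples and the exact test for every gene.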

Additional observations from a re-analysis of the deposited data

How the results depend on the processing

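The call of Hmgb2 and those of the 3 ratios held under every alternative run except Gusb alone, where Hmgb2 turned (log2 fold change 0.39). Scaling to Cltc, Gusb or Pgk1 alone and subtracting negative controls were chosen after seeing the data, as were the counts per list and the kept nearest genes. Signs turned as follows (log2 fold changes). Rescaling to the median gene gave Hmgb1 -0.0027, Hmgn1 -0.18 and Ager -0.0055, and 108 genes called lower. Quantile normalization gave Hmgn1 -0.13, Ager -0.39 and Hspb1 -0.22. Gapdh alone gave Hmgb1 -0.49, Hmgn1 -0.66, Ager -0.48 and Hspb1 -0.10, with 34 genes called higher and 126 lower. Cltc alone gave Hmgb1 -0.052, Hmgn1 -0.23 and Ager -0.053, with 112 called lower. Pgk1 alone gave Hmgb1 -0.65, Hmgn1 -0.82, Ager -0.63, Hspb1 -0.26 and Rps6ka5 -0.10, with 30 called higher and 147 lower. Gusb alone gave Hmgb1 1.79, Hmgn1 1.61, Ager 1.72, Tlr4 0.53, Ly96 0.67, Tlr9 0.92, Cxcr4 1.37, Rhoa 1.04 and Cebpb 0.046, with 219 called higher and 13 lower. Multiplying the background by the lane factor gave 140 called higher, through genes at background. Other causes were not tested. The median log2 fold change of the genes above background moved from 0.13 to -0.13 (median), 0.23 (no Gapdh), -0.61 (Gapdh) and -0.19 (quantile). Leaving out each sample gave Hmgn1 -0.00323 to 0.15, Hmgb1 0.19 to 0.32, Hmgb2 -1.26 to -1.04 and Ager 0.13 to 0.33, with 76 to 88 genes called higher and 46 to 86 lower, the most without monocyte sample 2. Same-numbered samples correlated in their deviations at 0.25, 0.40 and 0.25 for numbers 3, 4 and 5 and at -0.03, -0.23 and -0.21 for 1, 2 and 6, so the numbers were not taken as pairs. With them as a replicate block the adjusted p of Hmgb2 was 0.000449 and of Hmgb1 0.0872, with 83 genes called higher and 49 lower, and the paired exact p of each ratio was 0.03125, the smallest it allows. Of 207 alternative values for the members, the ratios and the counts over all genes, 178 were kept. For members and ratios this means direction and call, and for counts a value close to the first one. Direction and call were kept in 20 (Hmgb1), 24 (Hmgb2), 18 (Hmgn1) and 19 (Ager) of 25 alternatives. Each ratio kept them in 19 of 19, none of which was another scaling between lanes. Few molecules were counted for Ager (14 to 24) and Hmgb2 (23 to 45) in Kupffer cells.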
